A study of Homo sapiens with 15 samples.

Results

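The genes described here encode 49 ribosome biogenesis factors, the proteins that transcribe ribosomal DNA, process and modify the precursor rRNA in the nucleolus and assemble it with ribosomal proteins. They were taken by symbol from an expression table of 23368 genes. The list was made with earlier results of these data known, so its counts beside those of all genes are descriptive. All 49 were found, and all 49 passed the filter on low values that left 14298 genes for testing. RNA was sequenced from U2OS, an osteosarcoma line with wild-type p53, in 15 libraries of 6 groups. Growing, asynchronous cells are represented by 3 libraries with DMSO and 3 with Nutlin. Non-released cells were held in a double thymidine block (2 mM thymidine for 16 h, 8 h without it, then 16 h again) and are represented by 2 and 2. S-phase cells were taken 4 h after release from that block, with 3 DMSO libraries and 2 Nutlin libraries. Nutlin, an antagonist of the p53 ubiquitin ligase MDM2, was used at 10 µM (its unit prefix was lost in the labels, and micromolar is assumed), with DMSO as vehicle. In both synchronised states it was added 4 h before release, or before the block was continued, and was kept on after release. How long asynchronous cells were treated was not stated in the labels. All libraries are labelled as 1 line, though the markers of 1 DMSO asynchronous library, given below with the depths, put its identity in doubt. Whether replicate libraries come from separate cultures was not stated either; the tests then cover the spread between libraries, which may be technical.

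Ribosome production begins with RNA polymerase I (Pol I), which transcribes the large rRNA precursor in the nucleolus. Small nucleolar RNPs (snoRNPs) of the box C/D class guide ribose methylation and those of the H/ACA class guide pseudouridylation. The small subunit processome folds and cleaves the 18S part, while a separate series of factors builds the 60S subunit. Many of these genes are known targets of MYC, which binds the E-box CACGTG. Stalled assembly is known to stabilise p53, because free ribosomal proteins and 5S rRNA then bind MDM2, the protein that Nutlin blocks directly.

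Promoter sequences of the members are shown first. Whether they relate to the differences between states was not tested. RefSeq promoters on GRCh38.p14, from 250 bases before to 50 after the annotated start, were matched for 39 of 49 members. Those of TCOF1, NOP58, NOLC1, DCAF13, RRP12, BOP1, RRS1, RRP1B, DDX18 and URB2 were not matched. The E-box CACGTG, which reads the same on both strands, was found in 13 of the 39 (33.3%) and in 7.43% of all 27305 promoters of that length. In 12 of the 13 it began between positions -15 and 35, counted from 0 at the annotated start, and in EBNA1BP2 at -237. Within the last 100 bases, a window chosen after these positions were seen, 30.8% of members and 2.87% of all promoters held it. Other ribosome biogenesis genes, listed for comparison, held it there in 25.5% of 98 promoters. The ETS core CCGGAAG (both strands) was in 33.3% of members and 10.7% of all promoters. The GC box GGGCGG (both strands) was in 74.4% and 44.6%, and TATAAA (both strands) in 2.56% and 12%. These matches describe letters of the window, and no binding was measured.

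The 100-base windows of 5 members are printed 5′ to 3′ on the gene's strand, with the E-box in capitals. UTP20, NOP14 and MYBBP1A were among the members with the smallest p for the block, WDR43 had the highest difference with Nutlin in each state, and FBL changed least with the block in DMSO. They lie at chr12:101280055-101280154 (plus strand), chr4:2963357-2963456 (minus), chr17:4555335-4555434 (minus), chr2:28894617-28894716 (plus) and chr19:39846330-39846429 (minus).
UTP20: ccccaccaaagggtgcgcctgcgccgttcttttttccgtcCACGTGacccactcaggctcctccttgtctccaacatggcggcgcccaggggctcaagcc
NOP14: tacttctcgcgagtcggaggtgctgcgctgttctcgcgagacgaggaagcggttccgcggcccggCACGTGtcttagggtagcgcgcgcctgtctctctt
MYBBP1A: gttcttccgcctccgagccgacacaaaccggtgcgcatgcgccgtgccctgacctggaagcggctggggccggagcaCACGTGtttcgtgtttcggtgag
WDR43: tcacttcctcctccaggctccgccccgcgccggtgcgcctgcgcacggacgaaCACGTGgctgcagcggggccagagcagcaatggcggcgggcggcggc
FBL: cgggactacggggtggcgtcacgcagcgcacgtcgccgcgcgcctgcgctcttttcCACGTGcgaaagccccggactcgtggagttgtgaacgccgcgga
The E-box begins at position -10 in UTP20, 15 in NOP14, 27 in MYBBP1A, 3 in WDR43 and 6 in FBL. The size of the fall was not compared between members with and without an E-box.

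Values are variance-stabilised and on a log2 scale at high expression, so that a difference of 1 is close to a doubling. Each difference is given on this log2 scale with its standard error after ±. A gene was called when limma's adjusted p (Benjamini-Hochberg over all 14298 genes) was under 0.05. In counts, members or genes that fell or rose are those called lower or higher. Whole reads could be recovered from the values, and reads assigned to genes ran from 6.05 to 23.4 M per library (median 15.9). The library labelled DMSO asynchronous replicate 3 stood apart, and whether it is U2OS could not be checked. Of 16 simple epithelial markers 15 were highest there, and they summed to 45115 normalised reads against 12621 to 17667 in the other 14 libraries. KRT19 stood at 7826 normalised reads there and at 3.68 to 33.9 elsewhere, CDH1 at 3506 against at most 98.9 and ESR1 at 1434 against at most 22.6. Of 10 bone and mesenchymal markers VIM, SPARC and FN1 were abundant in all libraries, while TWIST1 was listed at 0 in all 15. SP7 reached at most 2.65 and COL1A2 at most 8.68 normalised reads in any library. RUNX2, COL1A1, CDH2 and ALPL lay between these levels. The 8 blood markers summed to at most 154 normalised reads in any library. DMSO S-phase replicate 2 was the shallowest library. Counts are therefore also given from the 13 libraries without these 2.

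The 49 genes together took a smaller share of reads in blocked cells. Of reads assigned to genes, leaving out the ribosomal precursor RN45S, they took 1.00, 1.05 and 0.956% in the DMSO asynchronous libraries and 0.943, 1.00 and 0.977% in the Nutlin asynchronous libraries. In non-released cells they took 0.590 and 0.558% with DMSO and 0.555 and 0.544% with Nutlin. S-phase libraries lay between, at 0.704, 0.607 and 0.744% with DMSO and 0.665 and 0.623% with Nutlin. The 3 states did not overlap, whereas DMSO and Nutlin libraries overlapped in the asynchronous and S-phase states. In such bulk RNA, fewer cells of a type and less RNA per cell cannot be told apart. RN45S itself took 0.0992 to 3.70% of reads and ran from 14.38 to 18.49 on the log2 scale within DMSO non-released cells alone.

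**Figure D1:**
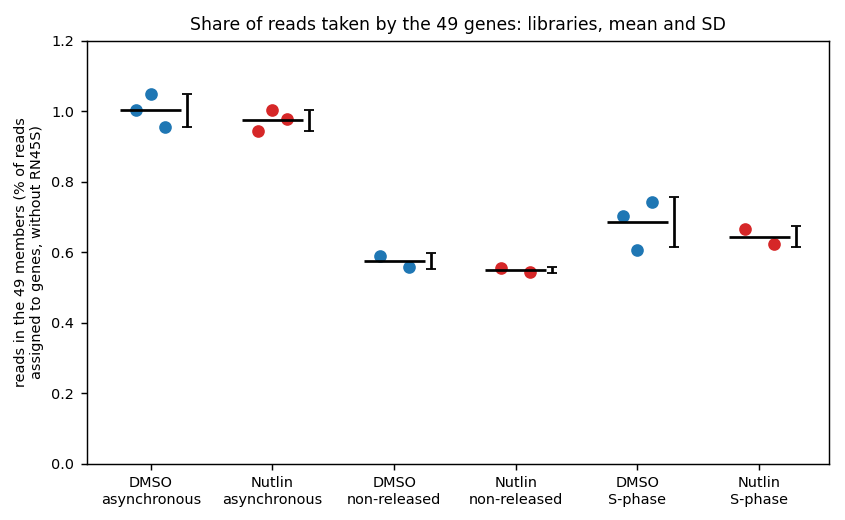
Share of reads assigned to genes (without RN45S) that fell in the 49 members, in percent, for each library of the 6 groups (points; blue DMSO, red Nutlin), with the group mean (line) and SD (bar). Asynchronous libraries lie from 0.943 to 1.05%, non-released libraries from 0.544 to 0.590% and S-phase libraries from 0.607 to 0.744%.

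Of all comparisons, thymidine block against asynchronous growth held the largest differences. In DMSO 48 of 49 members were called lower, as were 17% of all genes tested. The median was -0.90 (range -1.69 to -0.25), against -0.01 over all genes. With Nutlin 48 of 49 were called lower as well, and 17.2% of all genes were. The median was -0.94 (range -1.77 to -0.38), against 0.00 over all genes. All 49 differences were below 0 in both treatments. NHP2, a subunit of the H/ACA snoRNPs, was not called, at -0.33 ± 0.15 (adjusted p = 0.11) in DMSO and -0.38 ± 0.15 (adjusted p = 0.0642) with Nutlin. From 13 libraries 49 of 49 were called lower in both treatments, and 3466 (DMSO) and 3524 (Nutlin) of all 14298 genes were. In DMSO 48 of 49 members were lower in both non-released libraries than in all asynchronous ones (28.9% of all genes were), and with Nutlin 49 were (35.4% of all genes).

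**Figure D2:**
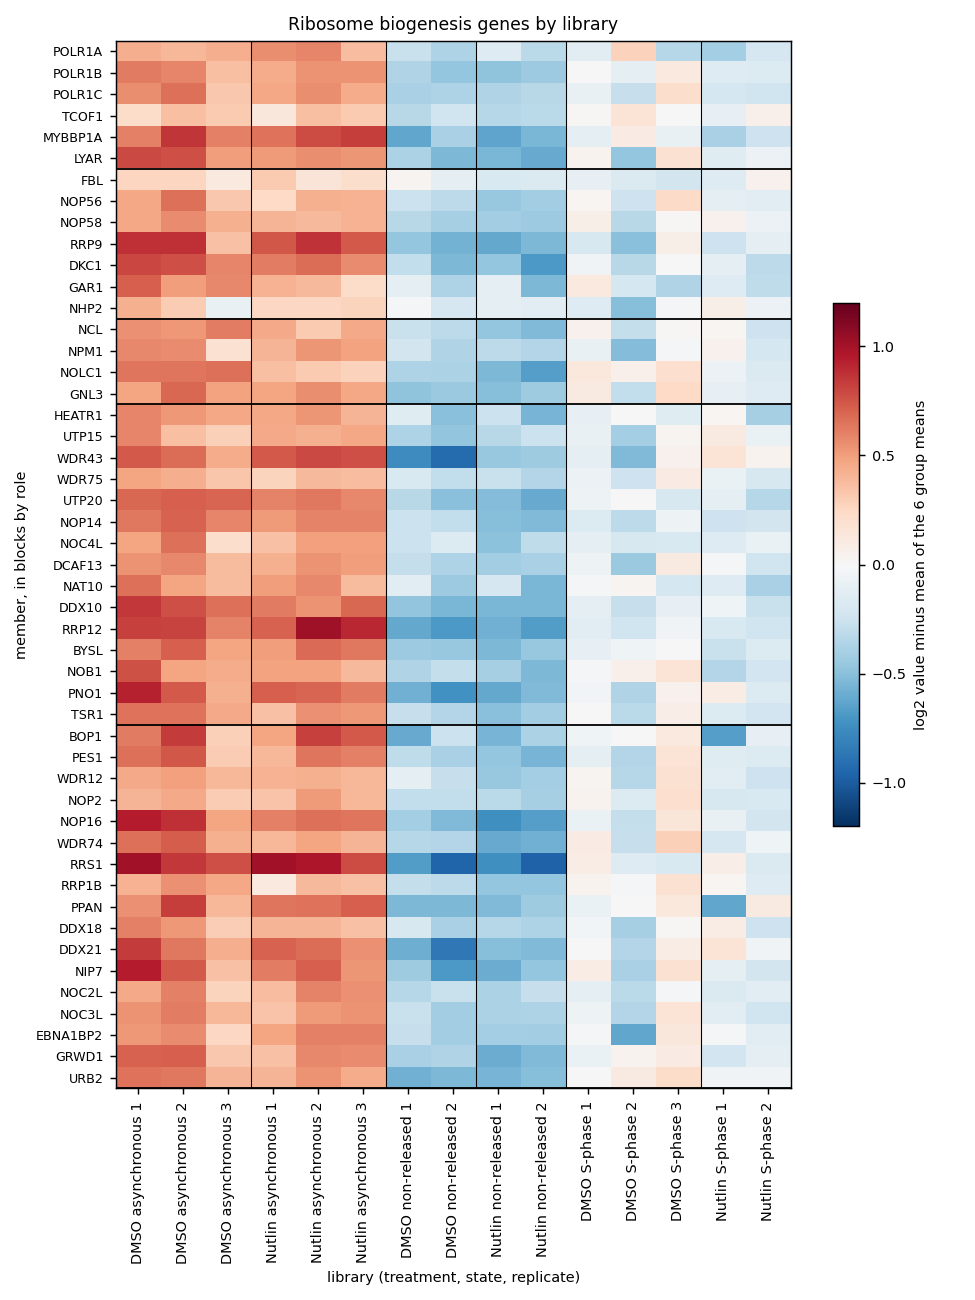
Log2 value of each library minus the mean of the 6 group means (colour), for the 49 members in blocks by role and the 15 libraries by state and treatment. The library medians over members are 0.40 to 0.64 in asynchronous, -0.47 to -0.34 in non-released and -0.27 to 0.07 in S-phase cells.

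Among genes of Pol I and its cofactors, 6 of 6 fell with the block in both treatments (median -0.91 in DMSO and -0.90 with Nutlin). POLR1A encodes the largest subunit of the enzyme, and its DMSO values were 11.34, 11.31 and 11.34 in asynchronous, 10.64 and 10.54 in non-released and 10.77, 11.19 and 10.57 in S-phase libraries. With Nutlin they were 11.47, 11.49 and 11.28, then 10.75 and 10.59, then 10.50 and 10.70. Asynchronous libraries were above all others, while S-phase and blocked libraries overlapped in both treatments. POLR1B, the second largest subunit, had DMSO values of 11.91, 11.87 and 11.65 in asynchronous, 10.93 and 10.82 in non-released and 11.29, 11.17 and 11.40 in S-phase libraries. With Nutlin it had 11.74, 11.83 and 11.83, then 10.81 and 10.86, then 11.13 and 11.12. Here the 3 states did not overlap in either treatment.

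TCOF1, treacle, which acts with Pol I at ribosomal DNA, had the smallest fall of its role in DMSO (-0.58 ± 0.09, adjusted p = 0.0004). It stood at 12.06, 12.20 and 12.16 in asynchronous, 11.51 and 11.60 in non-released and 11.86, 12.002 and 11.85 in S-phase libraries with DMSO, and at 11.98, 12.20 and 12.15, then 11.50 and 11.52, then 11.75 and 11.90 with Nutlin. The order of states was the same in both treatments. MYBBP1A, a nucleolar MYB-binding protein, fell by 1.19 ± 0.11 in DMSO (adjusted p = 1.28e-05) and by 1.34 ± 0.11 with Nutlin (adjusted p = 4.92e-06). Its DMSO libraries had 10.81, 11.07 and 10.81, then 9.59 and 9.82, then 10.10, 10.31 and 10.12 in the same order of states, and its Nutlin libraries 10.86, 10.99 and 11.04, then 9.58 and 9.66, then 9.81 and 9.96. POLR1C, a subunit shared with Pol III, fell by 0.89 in DMSO, and LYAR, a nucleolar zinc finger protein, by 1.15.

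Of 7 snoRNP genes 6 fell with the block in each treatment (median -0.84 in DMSO and -0.80 with Nutlin). RRP9, a protein of the U3 snoRNP, fell by 1.22 in DMSO and 1.36 with Nutlin. DKC1, the pseudouridine synthase dyskerin, fell by 1.14 ± 0.12 in DMSO (adjusted p = 2.53e-05) and 1.19 ± 0.12 with Nutlin (adjusted p = 1.89e-05). Its DMSO libraries had 12.38, 12.35 and 12.17 in asynchronous, 11.28 and 11.03 in non-released and 11.53, 11.25 and 11.58 in S-phase cells, and its Nutlin libraries 12.19, 12.25 and 12.14, then 11.11 and 10.89, then 11.46 and 11.26. In DMSO, S-phase replicate 2 lay within the blocked range. NOP56 and NOP58, core proteins of the box C/D snoRNPs, fell by 0.77 and 0.85 in DMSO, and GAR1, an H/ACA protein like NHP2, by 0.84.

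FBL, fibrillarin, is the methyltransferase of the box C/D snoRNPs and had the smallest change with the block in DMSO. It had 11.24, 11.24 and 11.10 in asynchronous, 11.01 and 10.87 in non-released and 10.88, 10.80 and 10.76 in S-phase libraries with DMSO and 11.30, 11.14 and 11.19, then 10.80 and 10.81, then 10.83 and 11.03 with Nutlin. It fell with the block by 0.25 ± 0.09 in DMSO (adjusted p = 0.0466) and by 0.40 ± 0.09 with Nutlin (adjusted p = 0.00393). The DMSO call was lost at the same difference without a filter on low values (adjusted p = 0.058) and with only the compared groups fitted (0.109). It was also lost without DMSO asynchronous replicate 1 or 2 (0.107 and 0.118) and without DMSO non-released replicate 1 or 2 (0.0707 and 0.319), at FBL differences from -0.32 to -0.18. S-phase and blocked libraries overlapped in DMSO. NHP2 had 10.99, 10.86 and 10.47 in asynchronous, 10.54 and 10.36 in non-released and 10.40, 10.05 and 10.53 in S-phase libraries with DMSO and 10.81, 10.80 and 10.82, then 10.45 and 10.42, then 10.63 and 10.48 with Nutlin. Its DMSO asynchronous replicate 3 lay within the range of the blocked and S-phase libraries, and without that library and DMSO S-phase replicate 2 it was called (-0.48 ± 0.08, adjusted p = 0.000388).

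All 4 abundant nucleolar chaperones and scaffolds fell with the block in both treatments. NCL, nucleolin, had the highest level per length of the 49 in DMSO asynchronous cells, at 4134 normalised reads per kb of transcript, followed by NPM1 at 3915, DDX21 at 3192 and EBNA1BP2 at 3129. PPAN was lowest per length, at 107. On the log2 scale NCL stood at 14.01, 13.99 and 14.08 in asynchronous, 13.20 and 13.16 in non-released and 13.52, 13.19 and 13.49 in S-phase libraries with DMSO, and at 13.92, 13.79 and 13.93, then 13.01 and 12.94, then 13.49 and 13.22 with Nutlin. NPM1, nucleophosmin, stood at 12.88, 12.88 and 12.49 in asynchronous, 12.09 and 11.94 in non-released and 12.22, 11.79 and 12.29 in S-phase libraries with DMSO, and at 12.71, 12.83 and 12.79, then 11.99 and 11.96, then 12.36 and 12.09 with Nutlin. DMSO S-phase replicate 2 lay within the range of the DMSO blocked libraries for NCL and below both for NPM1. Processed pseudogenes of NPM1 are known, so its level is uncertain. GNL3, nucleostemin, a nucleolar GTP-binding protein, had 11.57, 11.78 and 11.58 in asynchronous, 10.62 and 10.65 in non-released and 11.21, 10.80 and 11.33 in S-phase libraries with DMSO and 11.57, 11.65 and 11.56, then 10.58 and 10.67, then 11.00 and 10.94 with Nutlin. Its states did not overlap in either treatment. NOLC1, a chaperone of snoRNPs, fell by 1.02 ± 0.08 in DMSO (adjusted p = 4.65e-06), and its libraries are given with the Nutlin comparison.

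Small subunit factors fell in 15 of 15 cases in both treatments (median -0.90 in DMSO and -0.94 with Nutlin). RRP12, a factor of pre-ribosome maturation and export, fell by 1.39 ± 0.10 in DMSO (adjusted p = 4.65e-06) and changed by -1.50 ± 0.10 with Nutlin (adjusted p = 2.29e-06). Its DMSO values were 11.41, 11.39 and 11.17 in asynchronous, 9.97 and 9.90 in non-released and 10.45, 10.35 and 10.54 in S-phase libraries, and its Nutlin values 11.30, 11.60 and 11.49, then 10.01 and 9.91, then 10.40 and 10.35. There was no overlap of states. UTP20, a large processome protein, fell by 1.12 ± 0.09 in DMSO (adjusted p = 6.28e-06) and 1.17 ± 0.09 with Nutlin (adjusted p = 3.5e-06). Its DMSO libraries had 11.69, 11.72 and 11.70 in asynchronous, 10.66 and 10.50 in non-released and 10.94, 10.99 and 10.81 in S-phase cells, and its Nutlin libraries 11.59, 11.64 and 11.58, then 10.48 and 10.39, then 10.89 and 10.66. States did not overlap here either. The RNA helicase gene DDX10 had the smallest p of all members in DMSO (-1.27 ± 0.09, adjusted p = 4.65e-06). WDR43, of the early processome, and PNO1, of late 40S maturation, fell by 1.46 and 1.35 in DMSO, BYSL by 1.05 and NOP14 by 0.92. WDR75, in the same processome subcomplex as WDR43, had the smallest change of this role in DMSO, at -0.65 ± 0.10 (adjusted p = 0.000315).

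Factors of 60S assembly fell in 17 of 17 cases in both treatments (median -0.95 in DMSO and -1.01 with Nutlin). RRS1, which helps to bring the 5S RNP into the pre-60S particle, had the largest fall of all 49, at -1.69 ± 0.13 in DMSO (adjusted p = 5.01e-06) and -1.77 ± 0.13 with Nutlin (adjusted p = 2.73e-06). With DMSO it averaged 1642 ± 141 normalised reads (SD, n = 3) in asynchronous and 471 ± 73.8 (SD, n = 2) in blocked cells. On the log2 scale its DMSO libraries had 10.86, 10.70 and 10.63 in asynchronous, 9.18 and 8.89 in non-released and 9.95, 9.70 and 9.67 in S-phase cells, and its Nutlin libraries 10.86, 10.82 and 10.63, then 9.11 and 8.89, then 9.93 and 9.68. URB2, a nucleolar factor of rRNA processing, had 11.81, 11.80 and 11.57 in asynchronous, 10.59 and 10.63 in non-released and 11.17, 11.27 and 11.39 in S-phase libraries with DMSO and 11.57, 11.71 and 11.61, then 10.60 and 10.65, then 11.12 and 11.12 with Nutlin. Neither gene had overlapping states. URB2 fell by 1.12 ± 0.09 in DMSO (adjusted p = 6.91e-06) and by 1.00 ± 0.09 with Nutlin (adjusted p = 1.13e-05). DDX21, a helicase active in both Pol I transcription and rRNA processing, fell by 1.36 ± 0.14 in DMSO (adjusted p = 2.6e-05), from 15416 ± 2160 normalised reads (SD, n = 3) to 5969 ± 796 (SD, n = 2).

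BOP1, PES1 and WDR12 form the PeBoW complex of 60S assembly, and all 3 fell with the block in both treatments, by 1.01, 0.92 and 0.65 in DMSO. BOP1 had 9.52, 9.74 and 9.19 in asynchronous, 8.30 and 8.65 in non-released and 8.86, 8.91 and 9.02 in S-phase libraries with DMSO and 9.38, 9.72 and 9.64, then 8.34 and 8.53, then 8.25 and 8.80 with Nutlin. Its 2 Nutlin S-phase libraries lay on either side of both blocked ones. PPAN, which fell by 1.13 in DMSO, shares exons with the read-through gene PPAN-P2RY11 and is uncertain. In all, 16 members have exons that overlap those of another gene in the table (GENCODE v29), and whether counting used strand was not stated in the labels.

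In S-phase cells the genes were still below asynchronous levels. With DMSO 49 of 49 members were called lower (13.6% of all genes were), with a median of -0.61, a range from -0.96 to -0.23 and -0.01 over all genes. With Nutlin 48 of 49 were called lower (10.6% of all genes), with a median of -0.65, a range from -1.09 to -0.26 and 0.00 over all genes. NHP2 was the exception, at -0.26 ± 0.15 (adjusted p = 0.234). The smallest p in DMSO belonged to DDX10 (-0.93 ± 0.08, adjusted p = 1.92e-05), NOP14 (-0.82 ± 0.08), UTP20 (-0.79 ± 0.08) and RRP12 (-0.88 ± 0.09). With Nutlin they belonged to RRP12 (-1.09 ± 0.10, adjusted p = 2.91e-05), MYBBP1A (-1.07 ± 0.11), NOP14 (-0.80 ± 0.08) and UTP20 (-0.83 ± 0.09). TCOF1 was nearest to its asynchronous level in DMSO, at -0.23 ± 0.08 (adjusted p = 0.049), and this call depended on the setting. It was lost at the same difference without a filter (adjusted p = 0.0626) and with only the compared groups (0.182). It was also lost without DMSO asynchronous replicate 2 or 3 (0.145 and 0.0792) and without DMSO S-phase replicate 1 or 3 (0.131 and 0.111), at TCOF1 differences from -0.22 to -0.20. Groups did not overlap in 48 members with DMSO (17.6% of all genes) and in 49 with Nutlin (29.4%). Fitted on the compared groups alone 29 of 49 were called lower in DMSO, with 317 of all 14298 genes called lower against 1943 in the 15-library fit. From 13 libraries 49 were, with 2290 of all genes.

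**Figure D3:**
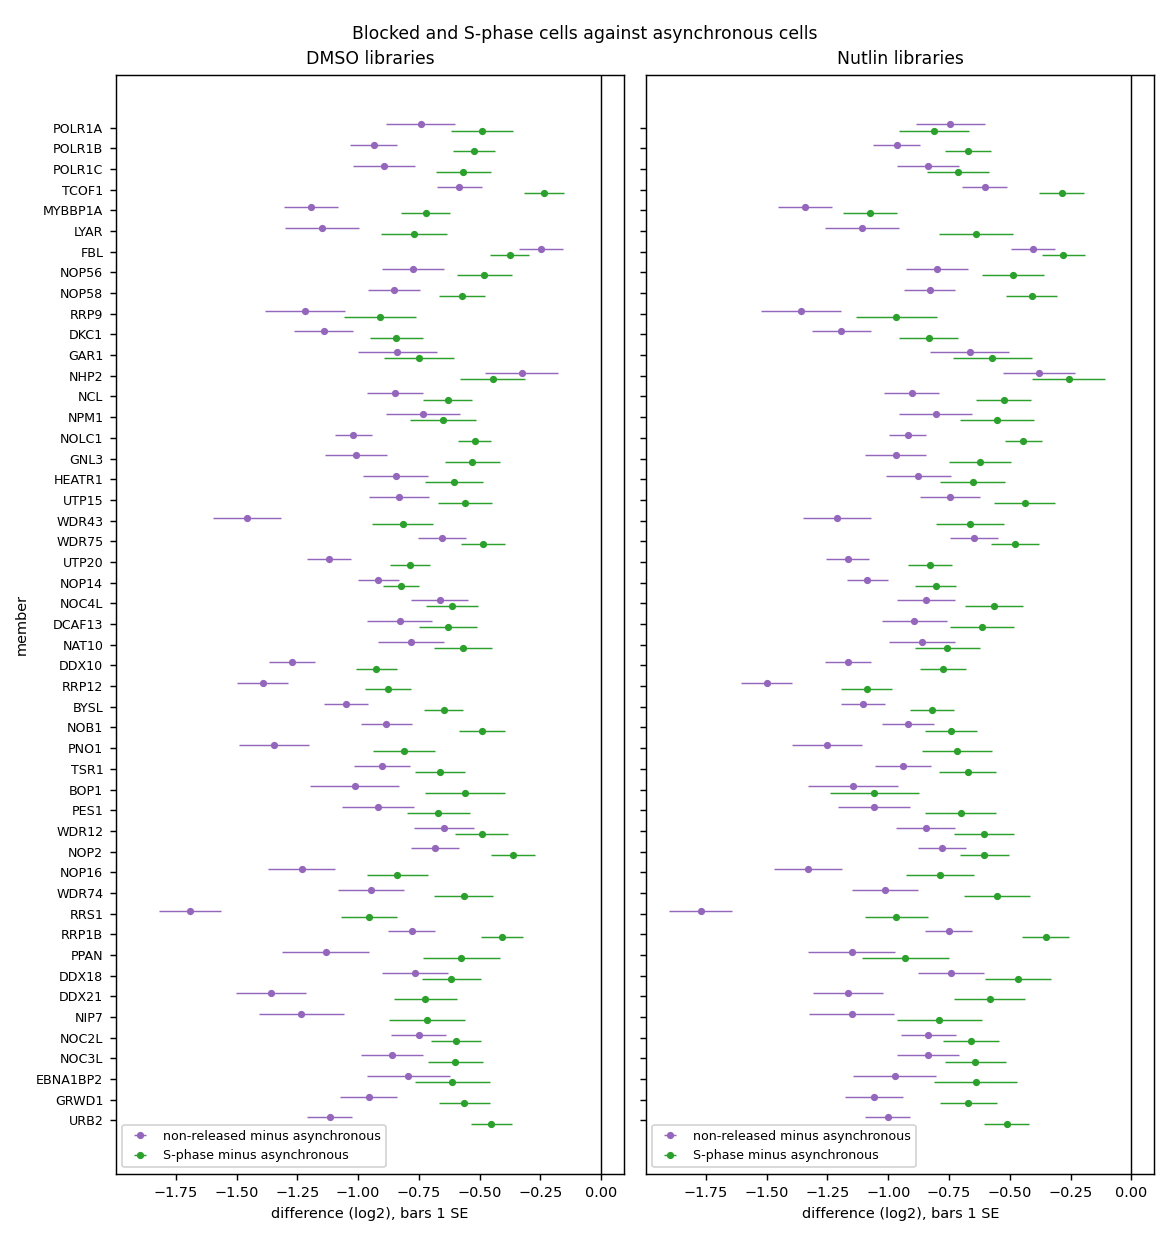
Difference of each member from asynchronous cells on the log2 scale (points, bars 1 SE) for non-released cells (purple) and S-phase cells (green), with DMSO libraries on the left and Nutlin libraries on the right. All points lie below 0, and S-phase points lie nearer to 0 than blocked ones except for FBL and NHP2 in DMSO and POLR1A with Nutlin.

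Release from the block was followed by a partial return. Differences were above 0 in 47 of 49 members in DMSO and in 48 with Nutlin, though fewer were called. Between non-released and S-phase cells 16 of 49 members rose in DMSO, where 4.11% of all genes were called higher, with a median difference of 0.32 (-0.01 over all genes) and no member called lower. URB2 rose by 0.67 ± 0.09 (adjusted p = 0.000721), NOLC1 by 0.50 ± 0.08 (adjusted p = 0.0014), RRS1 by 0.74 ± 0.13 (adjusted p = 0.00384) and RRP12 by 0.52 ± 0.10 (adjusted p = 0.0092). WDR43, BYSL, DDX21, POLR1B, MYBBP1A, RRP1B, TCOF1, GNL3, PNO1, NOB1, UTP20 and DDX10 rose too, by 0.33 to 0.64. By role these were 3 of 6 Pol I genes, 2 of 4 chaperones, 7 of 15 small subunit factors and 4 of 17 factors of 60S assembly. None of the 7 snoRNP genes was called, with differences from -0.13 for FBL to 0.31 for RRP9. With Nutlin 3 of 49 were called higher (1.6% of all genes were), at a median over members of 0.31 (0.01 over all genes). They were NOLC1, by 0.48 ± 0.08 (adjusted p = 0.00877), RRS1, by 0.80 ± 0.14 (adjusted p = 0.00886), and URB2, by 0.49 ± 0.10 (adjusted p = 0.0223). All S-phase libraries were above both blocked ones in 43 members with Nutlin (27.8% of all genes) and in 26 with DMSO (17.7%).

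These counts of members that rose depend on the libraries used. The percentages of all genes beside them here count calls in either direction. From 13 libraries 35 members rose in DMSO and 29 with Nutlin, where 14.2% and 10.8% of all genes were called in either direction. Of all genes, 1130 and 901 were called higher. Neither left-out library is in the Nutlin comparison. Its differences were therefore the same (median 0.31), and only the estimate of spread shared by all groups changed. Without DMSO S-phase replicate 2 alone 28 rose in DMSO, with 7.78% of all genes called in either direction and 663 called higher. Without DMSO S-phase replicate 1 or 3 there were 8 or 9, with 4.99 or 6.53% of all genes (425 or 591 called higher). Without DMSO non-released replicate 1 or 2 there were 3 or 2, with 1.94 or 1.63%. Without Nutlin non-released replicate 2 or Nutlin S-phase replicate 1 the Nutlin count was 0, with 0.671 or 0.846% of all genes called. As a description, the part of the block difference regained in S-phase cells (S-phase minus non-released over asynchronous minus non-released) had a median over members of 32.9% in DMSO and 31.2% with Nutlin. Without the 2 libraries that stood apart it was 40.2% in DMSO. TCOF1 and URB2 had the highest values in DMSO, at 59.8 and 59.6%, and RRP1B and TCOF1 with Nutlin, at 53.1 and 52.4%. Group means ran from asynchronous over S-phase to blocked in 47 members in DMSO (not FBL and NHP2) and in 48 with Nutlin (not POLR1A).

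Nutlin against DMSO within a state gave small differences beside those between states. Medians were -0.03 (asynchronous), -0.06 (non-released) and -0.08 (S-phase), against -0.02, -0.02 and -0.01 over all genes. In asynchronous cells 1 member was called, lower with Nutlin, where 2.45% of all genes were called and 0.546% were called lower. With limma 0 members were called in non-released and in S-phase cells, where 0.916% and 2% of all genes were. At an unadjusted p under 0.05 there were 2, 3 and 5 members in the 3 states, and the share of all genes at that p is not given here. With voom, limma's method for counts, on the recovered reads 1, 0 and 0 members were called. Of all genes, voom called 2.84, 1.59 and 1.67%. Nutlin libraries were all below DMSO libraries in 6, 20 and 9 members (9.64%, 25.7% and 12% of all genes). They were all above in 1, 5 and 0 members, and the share of all genes for that direction is not given here. All 3 differences were below 0 in 23 of 49 members and in 25.9% of all genes, and all above 0 in 3 of 49 members and in 18.9% of all genes.

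NOLC1 was the member called. In asynchronous cells it had 11.76, 11.76 and 11.78 with DMSO and 11.48, 11.43 and 11.40 with Nutlin, or 3429 ± 33 against 2718 ± 79 normalised reads (SD, n = 3 and 3). The groups did not overlap, and the DMSO replicate that stood apart lay with the other 2. NOLC1 fell there by 0.33 ± 0.07 (adjusted p = 0.0196). Non-released libraries had 10.75 and 10.74 with DMSO and 10.58 and 10.46 with Nutlin, a difference of -0.23 ± 0.08 (adjusted p = 0.415). S-phase libraries had 11.24, 11.18 and 11.32 against 11.05 and 10.94, a difference of -0.25 ± 0.08 (adjusted p = 0.135). Nutlin libraries were the lower ones in all 3 states, without overlap. The response in non-released cells differed from that in asynchronous cells by 0.10 ± 0.11 (adjusted p = 1) and that in S-phase cells by 0.08 ± 0.10 (adjusted p = 0.894). From 13 libraries NOLC1 was called in asynchronous (-0.32 ± 0.07, adjusted p = 0.00811) and in S-phase cells (-0.29 ± 0.07, adjusted p = 0.0388). Those 2 comparisons then called 6.21% and 3.94% of all genes. The call in asynchronous cells was lost when only the compared groups were fitted (adjusted p = 0.0605). It was also lost without DMSO replicate 2 or Nutlin replicate 1, 2 or 3 (adjusted p = 0.0694, 0.059, 0.0931 and 0.0811), at differences from -0.35 to -0.31.

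WDR43, a protein of the early processome, had the highest difference with Nutlin of the 49 in each state. In blocked cells it had 11.74 and 11.57 with DMSO and 12.04 and 12.06 with Nutlin, a difference of 0.40 ± 0.15 (adjusted p = 0.489). Asynchronous libraries had 13.23, 13.17 and 12.94 against 13.23, 13.29 and 13.27 (0.15 ± 0.13, adjusted p = 0.748). S-phase libraries had 12.38, 11.97 and 12.54 against 12.66 and 12.54 (0.30 ± 0.14, adjusted p = 0.391). Blocked groups did not overlap, asynchronous groups were separated by less than 0.01, and S-phase groups overlapped. WDR43 was called in blocked cells from 13 libraries (0.40 ± 0.08, adjusted p = 0.0127) and when only the 4 blocked libraries were fitted (adjusted p = 0.0197). Those fits called 3.21% and 4.46% of all genes, so 1 of 49 members is below the share over all genes. NOP2, an rRNA methyltransferase of 60S assembly, stood at -0.21 ± 0.10 in S-phase cells (adjusted p = 0.404) and was called there from 13 libraries (-0.30 ± 0.08, adjusted p = 0.049). NOB1, the nuclease that forms the end of 18S rRNA, had the smallest p in S-phase cells, at -0.36 ± 0.11 (adjusted p = 0.123).

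**Figure D4:**
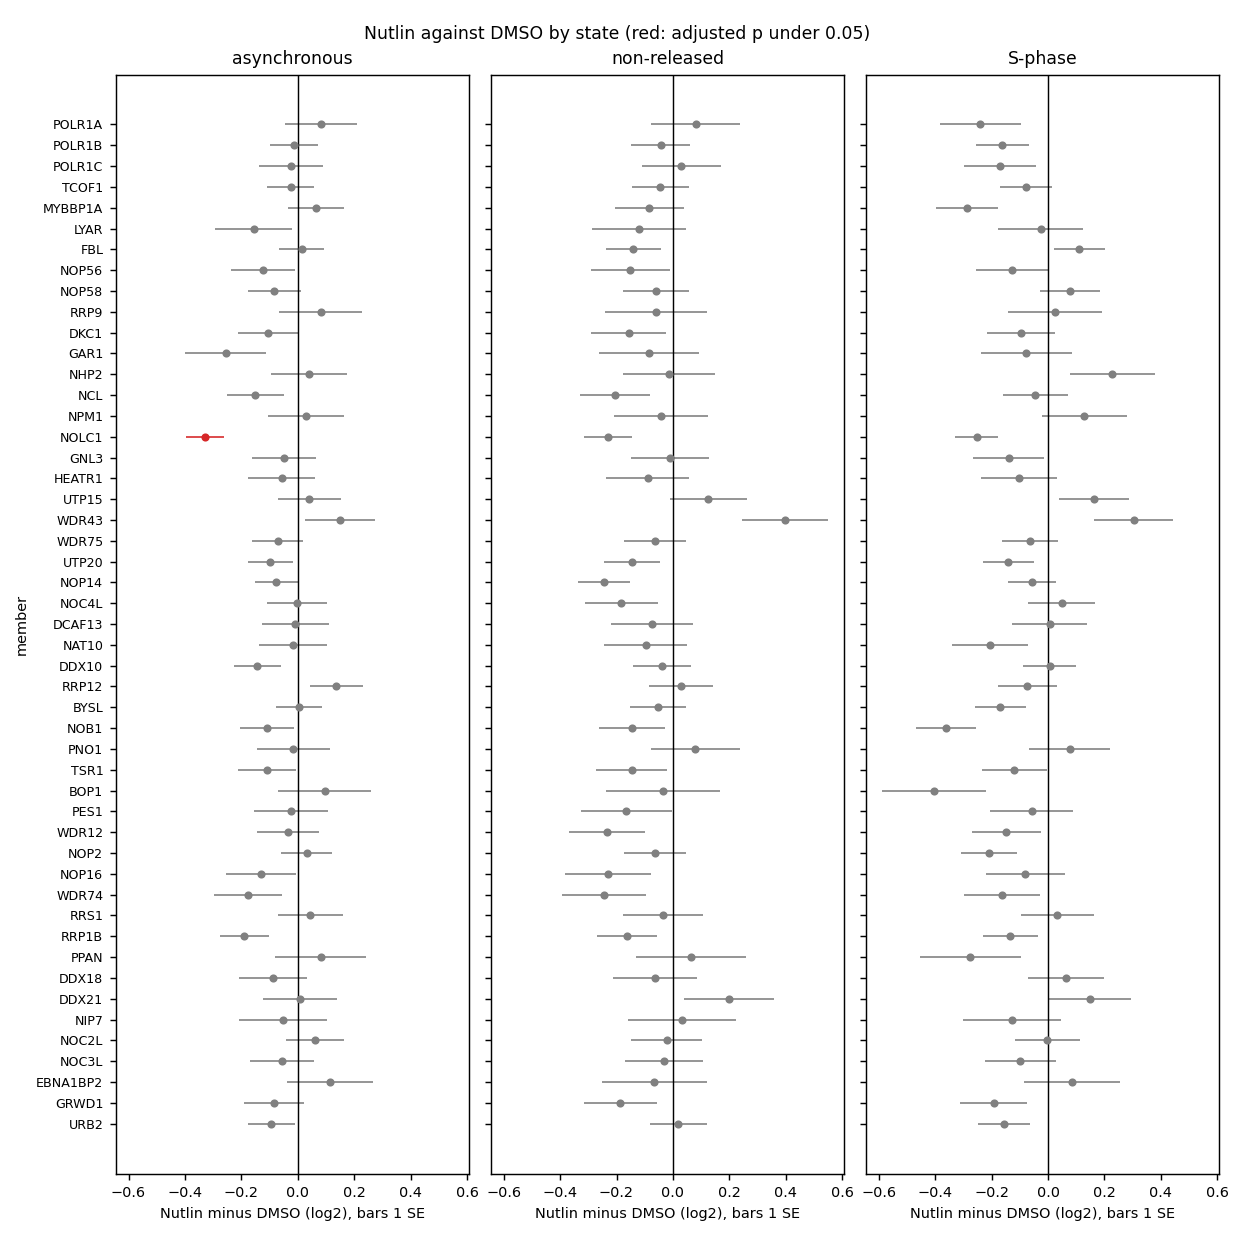
Nutlin minus DMSO difference of each member on the log2 scale (points, bars 1 SE) in 3 panels by state, with the 1 member at an adjusted p under 0.05 in red. NOLC1 is the red point at -0.33, and WDR43 has the highest point in each panel, at 0.15, 0.40 and 0.30.

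**Figure D5:**
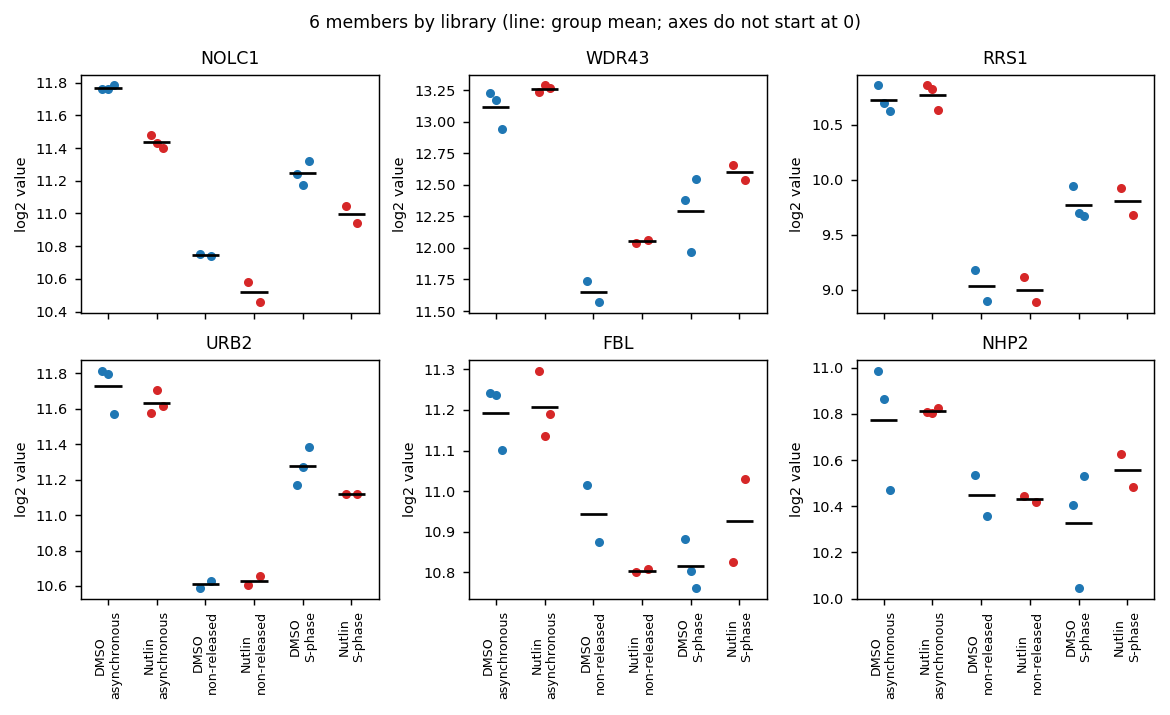
Log2 values of 6 members in every library (points; blue DMSO, red Nutlin) with group means (lines); vertical axes differ and do not start at 0. NOLC1 is lower with Nutlin in each state, RRS1 and URB2 are lowest in blocked cells with S-phase between, and in FBL and NHP2 the S-phase and blocked DMSO libraries overlap.

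The difference between the Nutlin responses of 2 states was tested for each pair of states, which is also the test of whether block or release acted differently with Nutlin. No member was called in any of the 3 pairs with limma or with voom, and 0% of all genes were called with limma on 15 libraries. At an unadjusted p under 0.05 there were 0 members for non-released against asynchronous, 1 for S-phase against asynchronous and 0 for S-phase against non-released cells. The share of all genes at that p is not given here. Member medians of the differences between responses were -0.04, -0.01 and 0.01. The counts of 16 members that rose after release in DMSO and 3 with Nutlin are therefore not shown to differ between treatments.

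Of 126 symbols of other ribosome biogenesis genes 116 were in the table and 113 were tested. This list too was chosen with earlier results of these data known. With the block 92 of 113 fell in DMSO (median -0.58) and 88 with Nutlin (median -0.57), and none was called higher. Over all genes tested 17% and 17.2% were called lower. The smallest p in DMSO were those of RRP15 (-1.31 ± 0.11), NOL6 (-1.20 ± 0.11), CCDC86 (-1.36 ± 0.12), PDCD11 (-0.86 ± 0.08), the Pol I subunit gene CD3EAP (-1.24 ± 0.12) and RRP1 (-0.96 ± 0.10). By role, 8 of 16 Pol I genes, 42 of 49 small subunit genes and 42 of 48 genes of 60S assembly fell in DMSO. In S-phase against asynchronous cells 81 fell in DMSO (median -0.42) and 65 with Nutlin (median -0.39), beside 13.6% and 10.6% of all genes. After release 11 rose in DMSO, led by RRP1 (0.49 ± 0.10, adjusted p = 0.00775). With Nutlin 3 rose, RRP1 (0.60 ± 0.11), RCL1 (0.60 ± 0.13) and RRP15 (0.49 ± 0.12). Of all genes, 4.11% were called higher in DMSO and 1.6% with Nutlin. None was called with Nutlin against DMSO by limma in any state, where 2.45, 0.916 and 2% of all genes were. At an unadjusted p under 0.05 there were 4, 1 and 6 of the 113, and the share of all genes at that p is not given here. The difference between the medians of the 2 lists was not tested.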

How the data were processed

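RNA of 15 U2OS libraries was read as single reads of 50 nt from TruSeq libraries, per the labels' protocols. The authors deposited 1 table of variance-stabilised values on a log2 scale. Per the submitters' processing notes the tools were DESeq2 1.10.1, HTSeq, TopHat 0.9 and CASAVA 1.8.2 with build hg19, and their roles are not given. Groups came from the labels. Inverting the transformation gave values within 0.05 of a whole read (up to 1000 reads) in 100% of cases in 14 libraries and 99.6% in DMSO S-phase replicate 3, where 99.7% were even multiples of the smallest step and the step was doubled. A count of 3 reads, the floor for a gene with none, corresponds to 0.128 to 0.496 per M reads (counting error only).

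Comparisons used limma 3.58.1 (R 4.3.3) on the deposited log2 values, with 1 mean per group over 15 libraries and moderated variances with trend. Genes tested had a value 1 or more above the table's minimum in 2 or more libraries. Tests were two-sided, in 12 comparisons, and the script was tested on simulated data. Members and lists were chosen with earlier results of these data known. Named genes were the called members and listed genes with the smallest p, a set given in every library, and members named for extreme values. Lengths (longest transcript) and exon overlaps came from GENCODE v29. No coordinates were converted. Alternatives were 2 other filters, the compared groups alone, 13 libraries, equal medians, voom, a replicate block and leaving out each library.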

Additional observations from a re-analysis of the deposited data

How the results depend on the processing

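Of 213 calls of a member in a comparison, all 213 kept their direction and call with 13 libraries, with the stricter filter and with voom. One was lost with equal library medians, 7 without a filter, 2 with the replicate block and 37 when only the compared groups were fitted. No called member reversed under any of these. With only the compared groups, the number of members called was 0 for Nutlin in asynchronous cells, 1 for Nutlin in non-released cells, 29 for S-phase against asynchronous cells in DMSO, and 1 in DMSO and 13 with Nutlin for S-phase against non-released cells. The shares of all genes called there were 1.41, 4.46, 7.06, 2.34 and 5.15%. With 13 libraries it was 1 for Nutlin in non-released cells, 2 for Nutlin in S-phase cells, and 35 in DMSO and 29 with Nutlin for S-phase against non-released cells, with 3.21, 3.94, 14.2 and 10.8% of all genes called. Leaving out each asynchronous library in turn gave 0 to 1 members for Nutlin in asynchronous cells, with 1.19 to 3.06% of all genes called. Leaving out each DMSO S-phase library gave 8 to 28 for S-phase against non-released cells in DMSO, with 4.99 to 7.78% of all genes called. Leaving out any other library of the release comparisons left 1 library in its group. The median difference over members was then 0.26 or 0.35 in DMSO and 0.29 to 0.37 with Nutlin. Fitting only the compared groups left the differences unchanged, as did 13 libraries for comparisons holding neither left-out library. Only the estimated spread changed there. For the other changes the cause was not tested.

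Same-numbered libraries had deviations from their group means that correlated by 0.313, 0.136 and 0.0744 in asynchronous, 0.325 and 0.325 in non-released and 0.341 and 0.351 in S-phase cells, so not every asynchronous pair was over 0.1 and the numbers were not taken as pairing. DMSO asynchronous replicates 1 and 3 correlated best with the Nutlin library of their own number, and replicate 2 with Nutlin replicate 3 (0.221). With the replicate block 5 members were called for S-phase against non-released cells with Nutlin, where 3.15% of all genes were called in either direction. The other counts of members stayed within 1.5 times.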
